A study of Mus musculus with 19 samples.

Results

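The expression of 10 genes of the red blood cell lineage was followed across 5 groups of sorted mouse stem and progenitor cells: Klf1, Hemgn, Epor, Rhd, Rhag, Aqp1, Ermap, Cldn13, Car1 and Car2. The genes were taken by name, with 1 RefSeq transcript accession per gene (the one with the highest mean count), and are 10 of the 24210 named genes in the count table. They were chosen with earlier results of these data known. Their share of calls, set beside that of all accessions, is therefore a description and not an independent test. All 10 passed the filter on low counts, Car1 only through its WT libraries. The cells were lin- Sca+ cKit+, the LSK compartment that holds hematopoietic stem cells and early multipotent progenitors, sorted uncultured from C57BL/6 mice, and their polyadenylated RNA was sequenced. Wild-type mice without treatment (WT) gave 4 libraries, wt1 to wt4. Mice of the genotype Idh2 R140Q;Flt3-ITD with acute myeloid leukemia gave 3 libraries after vehicle (IDH2-FLT3 vehicle: V3, V3-2 and V9) and 4 after AG-221 (AG1, AG8, AG12 and AG13), a drug that blocks the mutant IDH2 enzyme. Leukemic mice labelled Tet2-/-;Flt3-IDT gave 4 libraries with vehicle (TET2-FLT3 vehicle: V1, V5, V5-2 and V19) and 4 with 5-Aza, a hypomethylating agent (AZ10, AZ11, AZ16 and AZ17). Both leukemic lines carry the Flt3 internal tandem duplication, so no group separates it from the Idh2 or Tet2 change. AG-221 was gavaged 2 times a day over 4 to 5 weeks. Its dose was 100 mg/kg as a single agent and 40 mg/kg in combination studies, and which of these a library had was not given in the sources used here. The 5-Aza mice had 4 cycles of 21 days, with intraperitoneal injections of 5 mg/kg on 5 days of each; decitabine is also named in the series text. Ages, pooling of animals and what drives the engineered alleles were not given in the sources used here, nor whether V3-2 and V5-2 came from animals other than those of V3 and V5. The p-values therefore measure the spread between these libraries, which may in part be technical.

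Red cells arise from stem cells through progenitors that come to depend on erythropoietin, the kidney hormone that keeps erythroid precursors alive by binding the receptor Epor and activating JAK2 and STAT5. The zinc-finger factors Gata1 and Klf1 switch on the genes of the mature cell: globins, blood-group membrane proteins, channels, carbonic anhydrases and heme enzymes. Most of that programme belongs to cells past the LSK stage. In this compartment such RNA is read as an erythroid signature of multipotent cells or of the few more advanced cells inside the gate. In bulk RNA, fewer cells of a type and less RNA per cell cannot be told apart.

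The promoter windows of these genes show what they share in sequence. The 250 bases before a RefSeq start (GRCm38.p6) were at hand for 7 of the 10 genes (Ermap, Rhd, Rhag, Aqp1, Hemgn, Klf1 and Epor). For Rhag and Ermap the start used lay inside the gene, so part of each window lies within it. The Rhag window ends at chr17:40811148, past the gene's first base at 40811099. The Ermap window, on the minus strand, reaches chr4:119189996, inside the gene that ends at 119190013. The windows were searched for the letters bound by GATA factors (GATA after A or T and before A or G) and for the CACCC-type letters of Klf1 sites (CCNCNCCC), on both strands, with overlapping matches counted separately; the letters of the GATA and CACCC patterns do not overlap each other in these windows. The windows of the regulators Klf1 and Hemgn, of the receptor gene Epor, of the blood-group gene Rhd and of Aqp1, the 1 without GATA letters, are shown 5′ to 3′ on the strand of the gene, with the GATA letters in capitals.
Klf1, chr8:84901732-84901981, plus strand: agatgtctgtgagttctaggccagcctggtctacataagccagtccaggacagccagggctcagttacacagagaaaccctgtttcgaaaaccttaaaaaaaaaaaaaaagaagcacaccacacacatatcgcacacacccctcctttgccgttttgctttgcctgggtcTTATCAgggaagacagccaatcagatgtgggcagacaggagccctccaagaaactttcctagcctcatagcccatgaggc
Hemgn, chr4:46404184-46404433, minus strand: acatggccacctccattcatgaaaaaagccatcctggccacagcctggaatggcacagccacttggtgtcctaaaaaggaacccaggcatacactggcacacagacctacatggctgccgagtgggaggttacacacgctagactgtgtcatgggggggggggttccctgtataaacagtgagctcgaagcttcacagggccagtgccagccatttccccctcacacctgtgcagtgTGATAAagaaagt
Epor, chr9:21963577-21963826, minus strand: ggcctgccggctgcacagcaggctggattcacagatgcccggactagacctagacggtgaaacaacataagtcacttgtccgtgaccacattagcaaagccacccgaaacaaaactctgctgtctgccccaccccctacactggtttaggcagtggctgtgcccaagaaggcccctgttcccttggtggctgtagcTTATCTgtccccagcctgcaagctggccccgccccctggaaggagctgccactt
Rhd, chr4:134864286-134864535, plus strand: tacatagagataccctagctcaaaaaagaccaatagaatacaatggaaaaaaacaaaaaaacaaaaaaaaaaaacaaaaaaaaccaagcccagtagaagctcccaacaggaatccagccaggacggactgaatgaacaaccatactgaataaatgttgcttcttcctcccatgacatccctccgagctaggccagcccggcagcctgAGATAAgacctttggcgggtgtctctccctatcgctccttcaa
Aqp1, chr6:55336049-55336298, plus strand: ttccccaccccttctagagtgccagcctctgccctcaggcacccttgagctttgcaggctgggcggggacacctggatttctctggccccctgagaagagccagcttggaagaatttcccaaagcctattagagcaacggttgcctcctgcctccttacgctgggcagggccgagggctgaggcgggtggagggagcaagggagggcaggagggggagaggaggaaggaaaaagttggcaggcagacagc
GATA letters were present in 6 of the 7 windows (85.7%), against 26.6% of 32817 promoter windows of the same length. Their first base lay at position -80 in Klf1, -67 in Ermap, -54 in Epor, -43 in Rhd, -31 in Rhag and -13 in Hemgn, where -1 is the base before the start used. Those of Rhag lie in the part of its window that is inside the gene. CACCC-type letters were present in 3 of the 7 (Aqp1, Hemgn and Epor, 42.9%), against 45.9% of all windows, and both kinds in 2 (Hemgn and Epor, 28.6%), against 8.2%. The Hemgn matches, at -98 to -95, are overlapping reads of an unbroken run of g. They hold neither CACCC nor its complement GGGTG, and Hemgn enters both counts through that run alone. A match of letters is a description of the window and not a measured binding site.

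Library totals ran from 9.64 to 20.38 × 1e6 counts. Values within a gene are counts per 1e6 (CPM) of library totals scaled by TMM factors, given as mean ± SD over the libraries of a group. Log2 fold changes are given ± their standard error from edgeR's quasi-likelihood test on all 19 libraries, with Benjamini-Hochberg adjustment over 11830 accessions. The words rose and fell are kept for genes with an adjusted p below 0.05. Genes listed under several accessions read low in the deposited counts: 61.6% of their accessions were at 0 in every library, against 18.7% of others. The sort markers, which are among such genes, could not be used to check the label, since Ly6a (the Sca antigen) was listed at 0 and Kit had 4 counts over all libraries. Nor could the adult globins, listed at 0 throughout, or Alas2, with 8 counts. All of the 10 genes had a single accession except Car1, which had 2, with 1 of them at 0, so that its level is uncertain.

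In WT cells the 10 genes differed widely in level per transcript length (FPKM, the deposited length-scaled unit). Car2, which encodes a highly active carbonic anhydrase found in red cells and in early progenitors, stood at 1535 ± 190.1 FPKM (SD, n = 4). It was far above Hemgn, a nuclear protein of hematopoietic cells, at 32.3 ± 8.39 FPKM. Then came the Rh blood-group polypeptide gene Rhd (21.1 ± 8.56), the claudin gene Cldn13 (19 ± 2.42), the water channel gene Aqp1 (14.8 ± 4.83) and Ermap, an immunoglobulin-like protein of the erythroid membrane (11.7 ± 4.1). Rhag, the partner that carries Rh proteins to the membrane (7.87 ± 2.28), Epor (7.45 ± 1.11) and Klf1 (7.20 ± 2.00) lay within each other's spread. Car1, the other main red cell carbonic anhydrase, was lowest at 0.981 ± 0.312 FPKM. In FPKM the libraries of neighbouring genes in this order overlapped from Hemgn to Klf1, and the separations were those of Car2 above and Car1 below.

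**Figure D1:**
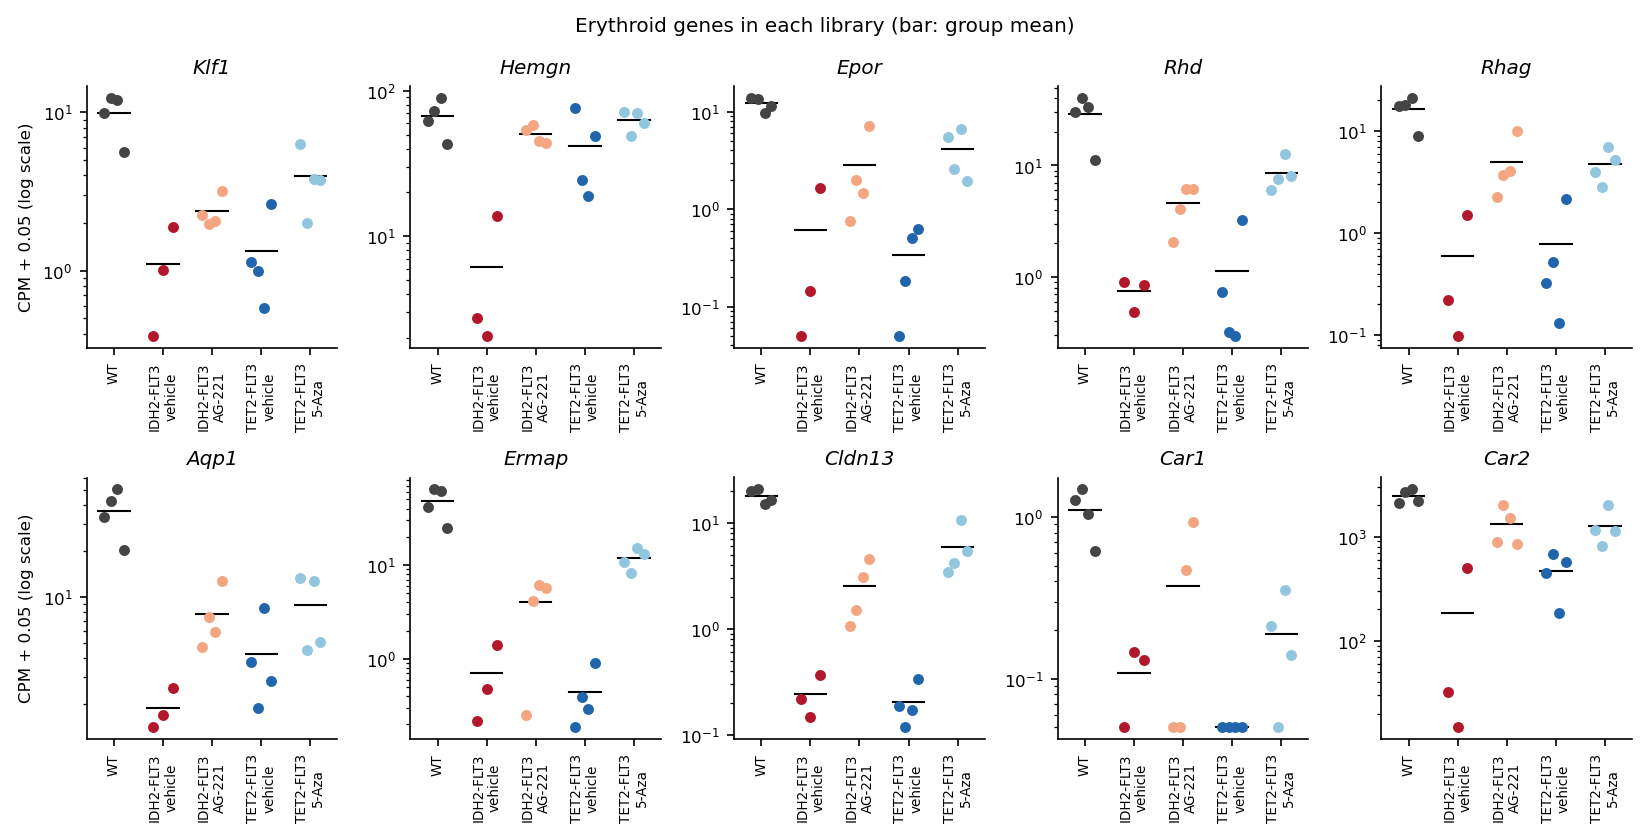
CPM of each erythroid gene in each library (points, log axis, with 0.05 added so that 0 can be shown) by group, with the group mean as a bar. The WT libraries lie above every vehicle library of both lines for all genes except Hemgn in TET2-FLT3, and the treated groups lie mostly between.

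The first question was how far leukemic LSK cells kept the erythroid signature of WT cells. It was nearly gone in IDH2-FLT3 vehicle, where all 10 genes fell. Group means there ran from 1.08% (Cldn13) to 10.6% (Klf1) of the WT mean, with a median of 4.83%. Among all accessions tested 10.4% fell in this comparison. In TET2-FLT3 vehicle 9 of the 10 fell, against 5.71% of all accessions, and Hemgn did not pass. Car1, which passed the filter only through WT, is among the genes counted in both lines. Every WT library was above every vehicle library for 10 genes in IDH2-FLT3 (20.0% of all accessions lay lower without overlap) and for 9 in TET2-FLT3 (11.5%). The median log2 fold change of the 10 genes was -4.38 in IDH2-FLT3, where that of all accessions was 0.02. It was -4.64 in TET2-FLT3, or -4.42 with Car1 at its bound, where that of all accessions was 0.07. Both comparisons use the same 4 WT libraries.

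Among the regulators, Klf1, the zinc-finger activator of beta-globin and many red cell genes, had 9.80, 12.3, 12.0 and 5.56 CPM in wt1 to wt4. It had 0.337, 0.962 and 1.84 CPM in V3, V3-2 and V9 of IDH2-FLT3 vehicle, and 1.09, 0.945, 0.533 and 2.59 CPM in V1, V5, V5-2 and V19 of TET2-FLT3 vehicle. The lowest WT library was thus above the highest vehicle library of either line. Klf1 fell by 3.23 ± 0.63 on the log2 scale in IDH2-FLT3 (adjusted p = 0.00166) and by 2.96 ± 0.56 in TET2-FLT3 (adjusted p = 0.00271). Hemgn had 61.7, 72.8, 89.2 and 43.1 CPM in WT and 2.70, 2.02 and 13.7 CPM in IDH2-FLT3 vehicle, a fall of 3.45 ± 0.58 (adjusted p = 5.31e-04). In TET2-FLT3 vehicle it kept 75.7, 24.2, 18.8 and 48.7 CPM. This group overlapped WT, with V1 above the WT mean and V5 and V5-2 below every WT library, and its log2 fold change of -0.68 ± 0.47 did not pass (adjusted p = 0.360).

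Epor, through which cells sense erythropoietin, had 13.8, 13.6, 9.66 and 11.4 CPM in WT. In IDH2-FLT3 vehicle it was at 0, 0.0962 and 1.60 CPM, and in TET2-FLT3 vehicle at 0, 0.135, 0.451 and 0.576 CPM. V9 was the one vehicle library of either line above 1 CPM, and every WT library was far above it. The fall was 4.44 ± 1.05 in IDH2-FLT3 (adjusted p = 0.00599; -7.49 without V9) and 5.24 ± 0.98 in TET2-FLT3 (adjusted p = 0.00260).

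Cldn13 and Ermap, both genes of membrane proteins, had the lowest share of the WT level among genes with counts in every group. Cldn13, whose product belongs to the claudin family of cell-contact proteins and is found in mouse erythroid cells, had 20.1, 20.7, 15.2 and 16.3 CPM in WT. It had 0.169, 0.0962 and 0.321 CPM in IDH2-FLT3 vehicle and 0.136, 0.0675, 0.123 and 0.288 CPM in TET2-FLT3 vehicle. Both vehicle groups were tightly low, with 8 counts each in all their libraries together against 922 in WT. The log2 fold changes were -6.53 ± 0.71 (adjusted p = 1.28e-05) and -6.86 ± 0.65 (adjusted p = 3.55e-06). Ermap went from 42.0, 64.0, 61.2 and 24.7 CPM in WT to 0.169, 0.433 and 1.36 CPM in IDH2-FLT3 vehicle and 0.136, 0.338, 0.246 and 0.864 CPM in TET2-FLT3 vehicle. V9 and V19, the highest vehicle library of each line, still lay far below wt4, the lowest WT library. Its log2 fold changes were -6.20 ± 0.87 (adjusted p = 1.43e-04) and -6.91 ± 0.80 (adjusted p = 4.29e-05).

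Of the Rh complex, Rhd had 29.9, 40.3, 33.7 and 11.1 CPM in WT, 0.843, 0.433 and 0.802 in IDH2-FLT3 vehicle and 0.682, 0.270, 0.246 and 3.17 in TET2-FLT3 vehicle, with V19 nearest to wt4. It fell from 28.8 ± 12.5 CPM in WT to 0.693 ± 0.226 in IDH2-FLT3 vehicle (-5.38 ± 0.82, adjusted p = 2.49e-04) and 1.09 ± 1.4 in TET2-FLT3 vehicle (-4.77 ± 0.70, adjusted p = 3.45e-04). Rhag, at 17.5, 17.9, 21.1 and 8.86 CPM in WT, fell from 16.3 ± 5.23 to 0.553 ± 0.773 (-4.92 ± 1.0, adjusted p = 0.00214) and 0.735 ± 0.932 CPM (-4.51 ± 0.86, adjusted p = 0.00301). The large SD of Rhag came from 1 library in each line: V9 had 1.44 CPM beside 0.169 and 0.0481, and V19 had 2.11 CPM beside 0.273, 0.473 and 0.0820. Aqp1, which lets water cross the red cell membrane, had 33.2, 42.7, 50.5 and 20.3 CPM in WT, 1.35, 1.63 and 2.49 in IDH2-FLT3 vehicle and 3.68, 1.82, 8.45 and 2.78 in TET2-FLT3 vehicle. It fell from 36.7 ± 13 to 1.82 ± 0.591 CPM in IDH2-FLT3 vehicle (-4.33 ± 0.62, adjusted p = 1.54e-04). In TET2-FLT3 vehicle it fell to 4.18 ± 2.94 CPM (-3.11 ± 0.51, adjusted p = 9.53e-04), with V5-2 highest.

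The carbonic anhydrases, which interconvert carbon dioxide and bicarbonate, gave the least secure calls. Car2 had 2110.5, 2651, 2835 and 2176 CPM in WT, 32.4, 14.7 and 503 CPM in IDH2-FLT3 vehicle and 446, 681, 186 and 565 CPM in TET2-FLT3 vehicle. V9 was over 10 times the other IDH2-FLT3 vehicle libraries and in the range of the TET2-FLT3 ones. The fall was 3.74 ± 0.85 in IDH2-FLT3 (adjusted p = 0.00488; -6.71 without V9) and 2.38 ± 0.71 in TET2-FLT3 (adjusted p = 0.0388). The latter call ended when any of wt1, wt2, wt3, wt4, V1, V5-2 or V19 was left out (adjusted p up to 0.0857). Car1 had 54 counts over the WT libraries (1.05 ± 0.373 CPM), 3 in IDH2-FLT3 vehicle and 0 in TET2-FLT3 vehicle. WT was 15.9-fold above IDH2-FLT3 vehicle by counts (95% interval 5.17 to 79.7, counting error only) and at least 20.2-fold above TET2-FLT3 vehicle, taking 3 counts over that group as the bound (0.0526 CPM). Its call in IDH2-FLT3 (adjusted p = 0.0368) ended when any single library was left out, with adjusted p from 0.0547 to 0.136. In TET2-FLT3 the adjusted p was 0.00975, and up to 0.0262 with 1 library left out. Car1 passed the filter on low counts only through its WT libraries, so a call against WT could only be lower and is a description. A fit of WT and TET2-FLT3 vehicle alone tested 9 of the 10 genes, without Car1.

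The vehicle groups of the lines were then compared with each other. Hemgn was the 1 gene of the 10 that differed, being lower in IDH2-FLT3 vehicle, as were 2.35% of all accessions. Its 3 IDH2-FLT3 libraries (2.70, 2.02 and 13.7 CPM) all lay below the 4 TET2-FLT3 libraries (75.7, 24.2, 18.8 and 48.7 CPM), as for 4.51% of all accessions, with a log2 fold change of -2.77 ± 0.56 (adjusted p = 0.00712). Because WT is common to both lines, this is also the test that the loss of Hemgn differed between them. The call ended without V3 (adjusted p = 0.0685) and when the 7 vehicle libraries were fitted alone (0.219). The other members overlapped between the lines, with log2 fold changes from -1.36 ± 0.76 (Car2, adjusted p = 0.307) to 0.80 ± 1.02 (Epor, adjusted p = 0.665), leaving out Car1, which was at or under 3 counts in both groups. The value of Car2 rested on V9: without that library Car2 was lower in IDH2-FLT3 vehicle by edgeR (-4.33, adjusted p = 8.98e-05) and the value of Hemgn moved to -4.16. Car2 also passed with all libraries by limma-voom (-2.89, adjusted p = 0.0491) and by limma on log2 of FPKM plus 1 (-2.72, adjusted p = 0.0446) or plus 0.1 (-2.79, adjusted p = 0.0352).

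The next question was whether inhibition of mutant IDH2 changed these genes in IDH2-FLT3 cells. With AG-221 7 of the 10 rose, against 4.39% of all accessions, and all 10 had a positive log2 fold change, with a median of 2.68 where that of all accessions was -0.00. All 4 treated libraries lay above all 3 vehicle libraries for 7 genes, against 13% of all accessions. The 3 that did not pass were Klf1, Epor and Car1.

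Hemgn rose most evenly, to 53.4, 57.7, 45.3 and 43.8 CPM in AG1, AG8, AG12 and AG13 from a vehicle mean of 6.14 ± 6.56 (3.04 ± 0.57, adjusted p = 0.00626). No treated library fell below the lowest WT value of 43.1. Cldn13 reached 1.01, 1.46, 3.03 and 4.49 CPM (3.68 ± 0.66, adjusted p = 0.00458), above every vehicle library and below every WT library. These 2 calls held with each library left out. Car2 reached 882, 2010.1, 1493 and 849.6 CPM (2.84 ± 0.82, adjusted p = 0.0357), so that all 4 libraries were above the 503 CPM of V9, and AG8 came close to wt1, the lowest WT library.

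Among the membrane genes Ermap had 0.201, 4.08, 6.06 and 5.67 CPM with AG-221. AG1 stayed inside the vehicle range, and the rise of 2.62 ± 0.76 (adjusted p = 0.0374) rested on the other libraries. Rhd reached 2.01, 4.00, 6.15 and 6.15 CPM (2.74 ± 0.74, adjusted p = 0.0288) and Rhag 2.21, 3.70, 4.04 and 9.96 CPM (3.21 ± 0.94, adjusted p = 0.0382). Both lay clear of the vehicle libraries, AG1 being lowest in each. Aqp1 rose to 4.63, 7.39, 5.89 and 12.7 CPM (2.07 ± 0.56, adjusted p = 0.0290).

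Klf1 had 2.21, 1.92, 2.02 and 3.13 CPM with AG-221. All 4 values were above the vehicle maximum of 1.84 CPM, yet the log2 fold change of 1.14 ± 0.59 did not pass (adjusted p = 0.202). Epor had 0.705, 1.92, 1.43 and 7.13 CPM, with AG13 well apart and AG1 and AG12 inside the vehicle range (2.33 ± 0.98, adjusted p = 0.117). Without V9 the rise of Epor passed (5.38, adjusted p = 0.00499), as it did by DESeq2 with all libraries (2.35, adjusted p = 0.0390). Car1 was at 0 in AG1 and AG8 and at 0.421 and 0.879 CPM in AG12 and AG13 (2.17 ± 1.28, adjusted p = 0.261).

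The calls of Ermap, Rhd, Rhag, Aqp1 and Car2 each ended without V3 and without V3-2, and also without AG8 (Ermap, Rhag, Car2), AG12 (Ermap, Rhd, Rhag, Car2) or AG13 (Ermap, Rhd, Rhag, Aqp1). The number of calls moved accordingly: 2 genes passed without V3 or without V3-2, 4 without AG8, 3 without AG12 or without AG13, and 8, with Epor added, without V9. The calls over all accessions moved as well. With all libraries 519 accessions rose, against 33 without V3, 43 without V3-2, 370 without AG8, 276 without AG12, 279 without AG13 and 1111 without V9. Without V9 the rises of Rhag and Car2 were 5.56 and 5.81. In a fit of the 7 IDH2-FLT3 libraries alone edgeR called 0 of the 9 genes tested, of which 7 had an unadjusted p under 0.05, and 0 of 10681 accessions in all, while DESeq2 on all libraries called 8.

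**Figure D2:**
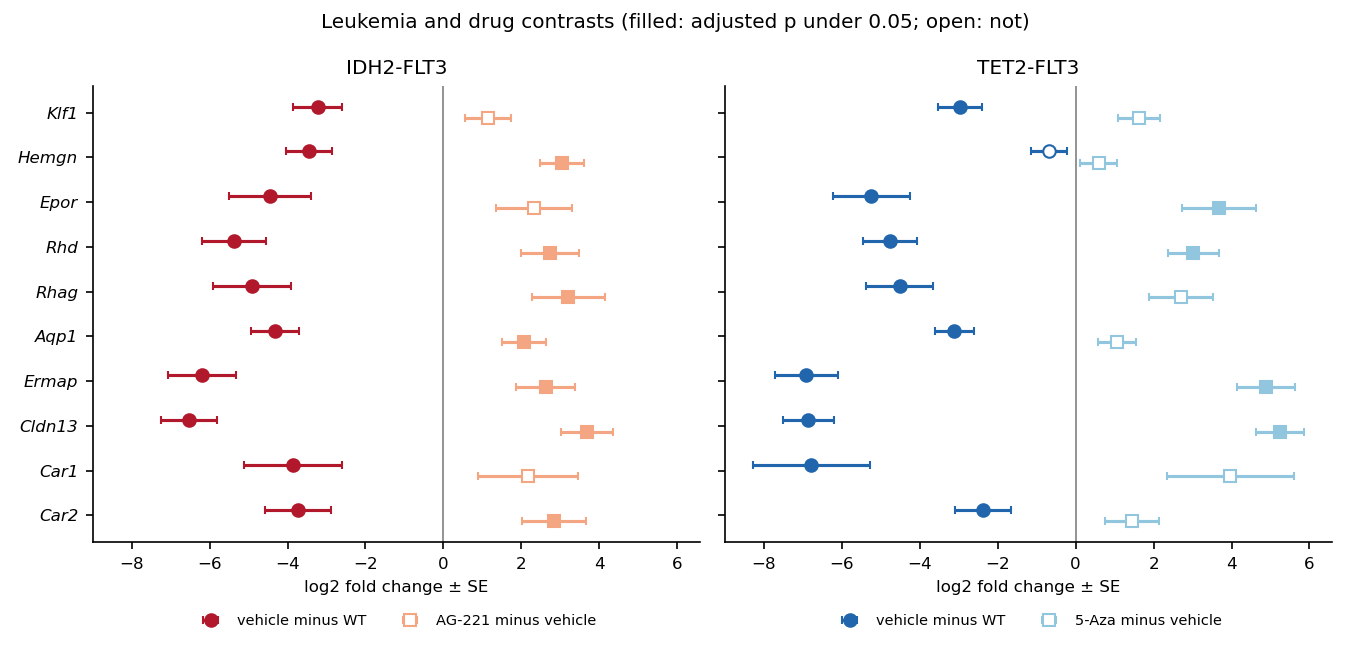
Log2 fold change ± standard error of each gene for vehicle minus WT (circles) and drug minus vehicle (squares) in each leukemic line, filled where the adjusted p was under 0.05. All estimates lie left of 0 for leukemia and right of 0 for the drugs; the TET2-FLT3 estimates of Car1 rest on a vehicle group with 0 counts and are no bound.

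With 5-Aza in TET2-FLT3 cells 4 of the 10 rose (Cldn13, Ermap, Rhd and Epor), against 0.431% of all accessions, where 51 accessions rose in all. All 10 had a positive estimate, with a median of 2.86, or 2.17 with Car1 at its bound, where that of all accessions was -0.05. Treated libraries lay above all vehicle libraries for 6 genes, the 4 called and Rhag and Car2, against 2.83% of all accessions.

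Cldn13 reached 3.40, 4.12, 10.7 and 5.41 CPM in AZ10, AZ11, AZ16 and AZ17, where no vehicle library exceeded 0.288. Its rise of 5.25 ± 0.62 had an adjusted p of 4.98e-04. Ermap reached 10.8, 8.17, 15.3 and 13.1 CPM (4.89 ± 0.75, adjusted p = 0.00229), again with no treated library near the vehicle ones. Rhd reached 5.99, 7.44, 12.7 and 7.94 CPM against a vehicle range of 0.246 to 3.17 (3.02 ± 0.66, adjusted p = 0.0190). Its call ended without V1, V5, V5-2 or AZ16 (adjusted p up to 0.0771). The calls of Cldn13 and Ermap held with each library left out.

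Epor, nearly absent under vehicle, had 5.42, 2.51, 6.53 and 1.89 CPM with 5-Aza. All 4 libraries were above the vehicle maximum of 0.576, and the rise of 3.68 ± 0.94 passed (adjusted p = 0.0435), but not when any of the 8 libraries was left out (0.0551 to 0.143). Klf1 had 6.31, 1.94, 3.72 and 3.70 CPM, with AZ11 inside the vehicle range (1.62 ± 0.54, adjusted p = 0.168). Hemgn, which had stayed high under vehicle, had 71.4, 48.7, 70.5 and 60.4 CPM (0.59 ± 0.47, adjusted p = 0.651).

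Rhag had 3.88, 2.75, 6.90 and 5.14 CPM (2.71 ± 0.82, adjusted p = 0.112) and Car2 1147, 815, 1997 and 1123 CPM (1.44 ± 0.69, adjusted p = 0.398); neither passed although the groups did not overlap. Aqp1 had 13.2, 4.45, 12.6 and 5.05 CPM, with AZ11 and AZ17 inside the vehicle range (1.06 ± 0.48, adjusted p = 0.371). Car1 had 7 counts over the treated libraries against 0 under vehicle. Here too the count of calls varied: 2 genes passed without V1, V5, V5-2 or AZ16, 3 without AZ10, AZ11 or AZ17, and 5 without V19. Over all accessions 9 (without AZ16) to 56 (without V19) rose in these fits, against 51 with all libraries. Without V19 Rhag (4.11, adjusted p = 0.0181) and Klf1 (2.22, adjusted p = 0.0470) passed, Rhd rose by 4.54 and Epor did not pass.

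The drug responses were compared by their difference in the same fit. None of the 10 genes passed, where 0.228% of all accessions did, and 2 genes, Ermap and Hemgn, had an unadjusted p under 0.05. DESeq2 called 1 of the 10 and limma-voom 0, where they called 364 and 92 of all accessions. Hemgn had the larger response to AG-221, by 2.45 ± 0.71 (adjusted p = 0.129). Its difference passed with DESeq2, without the filter on low counts and on log2 of FPKM plus 0.1, and in edgeR without V9 (3.83, adjusted p = 5.99e-04) or without V5-2 (2.74, adjusted p = 0.0472). Without V9 the difference of Car2 passed as well (4.37, adjusted p = 6.87e-04). Ermap had the larger response to 5-Aza (-2.27 ± 1.02, adjusted p = 0.297). The estimates of the others, without Car1, ran from -1.58 ± 0.91 (Cldn13) to 1.4 ± 1.01 (Car2). Hemgn had 43.8 to 57.7 CPM with AG-221 and 48.7 to 71.4 CPM with 5-Aza, from 2.02 to 13.7 and 18.8 to 75.7 CPM under vehicle.

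Treated cells were last set beside WT, the same 4 libraries as above. With AG-221 the group means stood at 8.34% (Ermap) to 75.0% (Hemgn) of WT, with a median of 23.3%. Cldn13, Ermap, Rhd, Aqp1 and Klf1 were still lower than WT, 5 of 10 against 1.67% of all accessions, and 7 did not overlap with WT (8.85%). The most distant were Ermap (-3.58 ± 0.66, adjusted p = 0.00352) and Cldn13 (-2.85 ± 0.50, adjusted p = 0.00251). Rhd (-2.65 ± 0.62, adjusted p = 0.0214), Aqp1 (-2.26 ± 0.49, adjusted p = 0.0125) and Klf1 (-2.09 ± 0.53, adjusted p = 0.0375) lost the call when a single library was left out: Rhd without wt1, wt2, wt3, AG1 or AG8, Aqp1 without wt3 or AG12, and Klf1 without wt1, wt2, wt3 or any AG-221 library. Hemgn (-0.41 ± 0.46, adjusted p = 0.796) and Car2 (-0.90 ± 0.68, adjusted p = 0.661) did not pass. The count was 3 without wt1, wt2, AG1, AG8 or AG12 and 2 without wt3. Over all accessions 117 (without wt3) to 169 (without AG13) were lower with 1 library left out, against 198 with all libraries.

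With 5-Aza the group means stood at 13.2% (Car1) to 94.1% (Hemgn) of WT, with a median of 31.2%. Aqp1 alone passed as lower (-2.05 ± 0.49, adjusted p = 0.0342), 1 of 10 against 1.10% of all accessions. That call ended without wt1, wt2, wt3 or any of the 5-Aza libraries, where edgeR called 0 of the 10 genes and 5 to 7 had an unadjusted p under 0.05. Those fits called 44 to 94 of all accessions lower, against 130 with all libraries. Yet all 10 estimates were below 0 (median -1.68, all accessions -0.03), and 7 genes did not overlap with WT (13.4% of all accessions). Of the 10 genes 7 had an unadjusted p under 0.05, a share that was not counted over all accessions. Limma-voom called 8 of 10, but it called 2755 of 11830 accessions, 1640 of them lower, where edgeR called 203. Ermap (-2.02 ± 0.61, adjusted p = 0.0978) and Cldn13 (-1.61 ± 0.47, adjusted p = 0.0918) were nearest to passing.

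**Figure D3:**
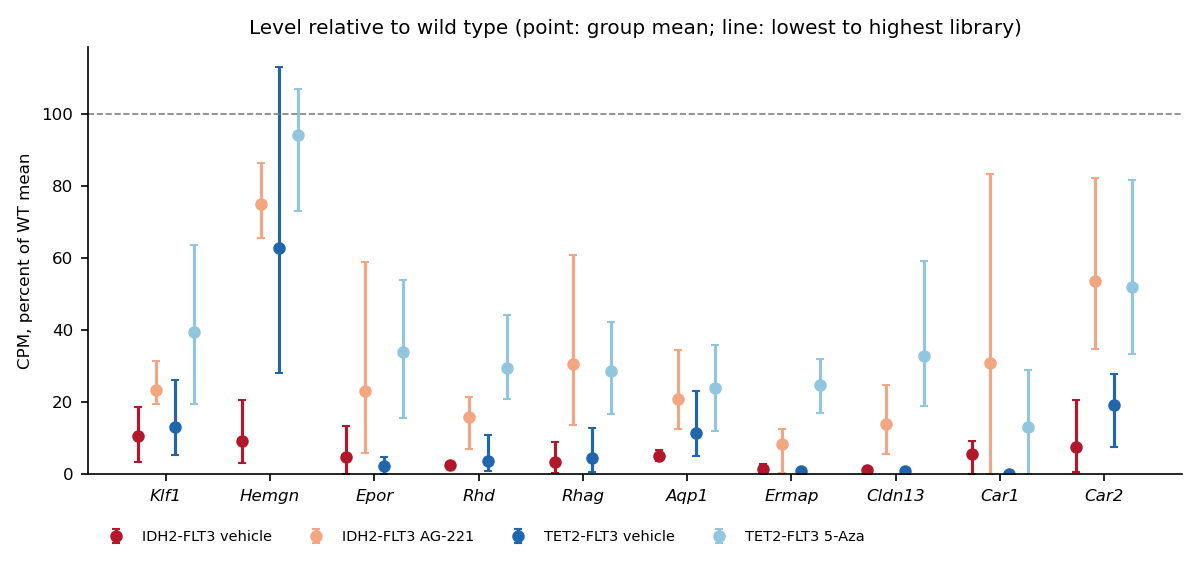
Group mean CPM of each gene as a percent of the WT mean (points), with a line from the lowest to the highest library, in the 4 leukemic groups. Treated means lie above the vehicle mean of their line for every gene, and Hemgn stands highest in 3 of the 4 groups.

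By mean CPM, WT was first for each of the 10 genes. The next group was 5-Aza for Cldn13, Ermap, Rhd, Aqp1, Hemgn, Klf1 and Epor, and AG-221 for Rhag, Car1 and Car2. The 5-Aza and AG-221 libraries overlapped for every gene but Ermap, where the lowest 5-Aza library (8.17 CPM) was above the highest AG-221 library (6.06 CPM). The vehicle groups took the last places for all 10, IDH2-FLT3 being lowest for Rhd, Rhag, Aqp1, Hemgn, Klf1 and Car2.

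The genes also varied together within groups. With group means removed from log2 CPM, all 45 pairs of genes had a positive Pearson correlation over the 19 libraries, from 0.06 to 0.80 with a median of 0.49. The points share libraries and their scaling, so this is a description. Rhag followed the others most closely (mean r 0.60) and Aqp1 least (0.30). Certain libraries carried the pattern: V9 was the highest of its group for 8 genes, AG13 for 7, AZ16 for 7 and V19 for 6, while wt4 was the lowest WT library for 7, AZ11 for 7 and AG1 for 6. AG13 was at once lowest of its group for Hemgn and Car2.

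Genes most like the 10 were sought among the other tested protein-coding genes, leaving out predicted genes, genes with Rik names and Y-linked genes. By mean Pearson r of log2 CPM over 19 libraries they were Gp9 (0.85), a subunit of the platelet receptor for von Willebrand factor, Dennd5b (0.85), Trib2 (0.84), the complement regulator Cd55 (0.84), the platelet chemokine gene Pf4 (0.84) and Tspo2 (0.84), an erythroid translocator protein. With group means removed their mean r was 0.44 to 0.55. Klf1 alone was most like Dennd5b (0.92), the sphingosine-1-phosphate exporter Mfsd2b of red cells and platelets (0.91) and the sodium pump subunit Atp1b2 (0.90). Epor alone was most like Dennd5b (0.91), Atp1b2 (0.90) and Trib2 (0.90).

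Other genes of the pathway were read from lists that share no gene with the 10 apart from the family lists. Of the genes named from these lists below, Bcl11a, Tal1, Nfe2, Alas1, Socs2 and Ptpn6 are each listed several times in the deposited counts. As for Car1, their levels are uncertain. Of 12 tested erythroid transcription factors and cofactors, 3 fell in IDH2-FLT3 vehicle (Gata1, Tal1 and Bcl11a), against 10.4% of all accessions. In TET2-FLT3 vehicle 2 fell (Gata1 and Tal1), against 5.71%. Gata1, the master erythroid factor, had 38.1 ± 15.6 CPM in WT, 4.16 ± 1.69 in IDH2-FLT3 vehicle and 1.79 ± 0.717 in TET2-FLT3 vehicle. With AG-221 it had 6.82 ± 4.39 CPM (0.72 ± 0.53, adjusted p = 0.364), and with 5-Aza it rose to 19 ± 9.55 CPM (3.37 ± 0.53, adjusted p = 0.00243). The difference of these responses, -2.65 ± 0.72, did not pass (adjusted p = 0.112). With AG-221 2 of the list fell (Foxo3 and Nfe2), against 5.29% of all accessions. The list median was -0.18, and 0 to 3 fell when 1 library was left out. The call of Tal1 in TET2-FLT3 ended without wt3 or wt4 (adjusted p up to 0.0555).

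Of 18 tested red cell membrane and skeleton genes 8 fell in each line, against 10.4% (IDH2-FLT3) and 5.71% (TET2-FLT3) of all accessions. The list medians were -2.20 and -2.29. Among the 8, Epb42, which anchors band 3 to the skeleton, fell by 5.69 ± 0.93 and 4.37 ± 0.75. Kel, the Kell blood-group protease, fell by 4.08 ± 0.88 and 6.55 ± 0.94. Mpp1, a membrane scaffold protein, instead rose in IDH2-FLT3 vehicle (1.01 ± 0.35, adjusted p = 0.0432), a call that ended when any single WT library, V3 or V3-2 was left out. With AG-221 2 of the 18 rose (Epb42 and Tspo2, neither without V3 or V3-2), against 4.39% of all accessions. With 5-Aza 7 rose, against 0.431%, among them Epb42, Icam4, Kel, Slc4a1 and Tspo2. All 7 calls ended without AZ16 and without V5-2, and at most 5 genes of the list passed with any 1 library left out.

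Heme synthesis did not follow the lineage genes. Of 12 tested enzymes and transporters 1 passed in IDH2-FLT3 vehicle, and it rose: Alas1, the housekeeping first enzyme of the pathway, by 3.35 ± 0.78 (adjusted p = 0.00542, or 0.0935 without V3-2). In TET2-FLT3 vehicle 1 fell, the mitochondrial iron importer Slc25a37 (-0.91 ± 0.25, adjusted p = 0.0258, and up to 0.105 with 1 library left out). The list medians were 0.31 and 0.17. Of all accessions 10.1% rose and 10.4% fell in IDH2-FLT3 vehicle, and 4.43% rose and 5.71% fell in TET2-FLT3 vehicle. The sum over the 15 listed genes was 765 to 894 CPM in WT and 713 to 959 over the vehicle libraries of both lines. Of 8 tested iron genes, the transferrin receptor Tfrc rose in IDH2-FLT3 vehicle (0.94 ± 0.24, adjusted p = 0.00991, or 0.0529 without V3-2), as did Aco1 (1.07 ± 0.30, adjusted p = 0.0165, or 0.0674 without V3). Heme oxygenase Hmox1 fell in IDH2-FLT3 vehicle (-2.34 ± 0.79, adjusted p = 0.0407) and in TET2-FLT3 vehicle (-2.71 ± 0.72, adjusted p = 0.0225); both calls ended with wt4 left out, among others.

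Downstream of Epor, 3 of 9 tested signalling genes rose in each line: Cish, Socs2 and Ptpn6 in IDH2-FLT3 vehicle, and Cish, Socs2 and Pim1 in TET2-FLT3 vehicle. With any 1 library left out the count was 1 to 2 in IDH2-FLT3 and stayed at 3 in TET2-FLT3, where 10.1% and 4.43% of all accessions rose. Cish and Socs2 are STAT5-induced inhibitors that many cytokine receptors share. Cish went from 29.0 ± 5.31 CPM in WT to 86.5 ± 91.6 in IDH2-FLT3 vehicle (1.57 ± 0.49, adjusted p = 0.0282, and lost without wt2, wt3, wt4 or V9, where it reached 0.728) and 183 ± 55.5 in TET2-FLT3 vehicle (2.66 ± 0.48, adjusted p = 0.00210). Both were also higher than WT in the treated groups. With AG-221 Cish was above WT by 3.18 ± 0.49 (adjusted p = 8.21e-04) and Socs2 by 3.66 ± 0.94 (adjusted p = 0.0385, and up to 0.134 with 1 library left out). With 5-Aza the values were 1.87 ± 0.47 for Cish (adjusted p = 0.0456, and up to 0.143) and 4.31 ± 0.94 for Socs2 (adjusted p = 0.0219, and up to 0.0800). Of the other carbonic anhydrases 8 were tested. Car11 fell in IDH2-FLT3 vehicle (-3.22 ± 0.93, adjusted p = 0.0193, or up to 0.0861 without wt4 or V3), and Car3 was the 1 gene of the 8 to rise with each drug. With 1 library left out, 0 to 3 of the 8 rose with AG-221 and 1 with 5-Aza. With all libraries 4.39% and 0.431% of all accessions rose with AG-221 and 5-Aza. Of the Rh family the 2 tested genes outside the 10 did not pass in either line.

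Markers of other cells moved with the same groups. In IDH2-FLT3 vehicle 9 of 14 tested neutrophil genes (4 to 11 with 1 library left out) and 11 of 12 monocyte genes (8 to 11) rose, against 10.1% of all accessions. In TET2-FLT3 vehicle 1 neutrophil gene (0 to 1) and 4 monocyte genes (3 to 5) did, against 4.43%, although a lineage-negative sort is meant to leave mature cells out. The summed level of the 15 neutrophil genes was 3658 to 16506 CPM in WT, 20172 to 128272 in IDH2-FLT3 vehicle and 6704 to 10759.5 in TET2-FLT3 vehicle. That of the 13 monocyte genes was 677 to 1489, 2853 to 11461 and 1589 to 3232 CPM. S100a9, with 1 count over all 19 libraries, cannot be read in this table. Stem cell genes fell with the erythroid ones, 9 of 12 in IDH2-FLT3 and 4 of 12 in TET2-FLT3, as did megakaryocyte genes, 5 and 6 of 11 (3 to 6 in each line with 1 library left out). Of all accessions 10.4% fell in IDH2-FLT3 vehicle and 5.71% in TET2-FLT3 vehicle. With AG-221 7 stem cell and 4 megakaryocyte genes rose and 6 monocyte genes fell, where 4.39% of all accessions rose and 5.29% fell; with 5-Aza 2 and 1 rose and 2 fell, where 0.431% rose and 1.45% fell. With 1 library left out, the AG-221 counts ran from 3 to 8, from 0 to 5 and from 2 to 8, and the 5-Aza counts from 0 to 2, from 0 to 2 and from 1 to 3. B-cell genes fell in both lines (12 and 11 of 12), but 1 rose with either drug, and 10 with AG-221 and 8 with 5-Aza were still lower than WT. Of all accessions 1.67% were lower than WT with AG-221 and 1.10% with 5-Aza. The summed level of the 18 megakaryocyte genes was 484 to 581 CPM in WT, 244 to 509.5 in IDH2-FLT3 vehicle and 241 to 412 in TET2-FLT3 vehicle, and Treml1 had 0 counts in the table and cannot be read. The part of these other cell types in the erythroid changes was not tested.

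**Figure D4:**
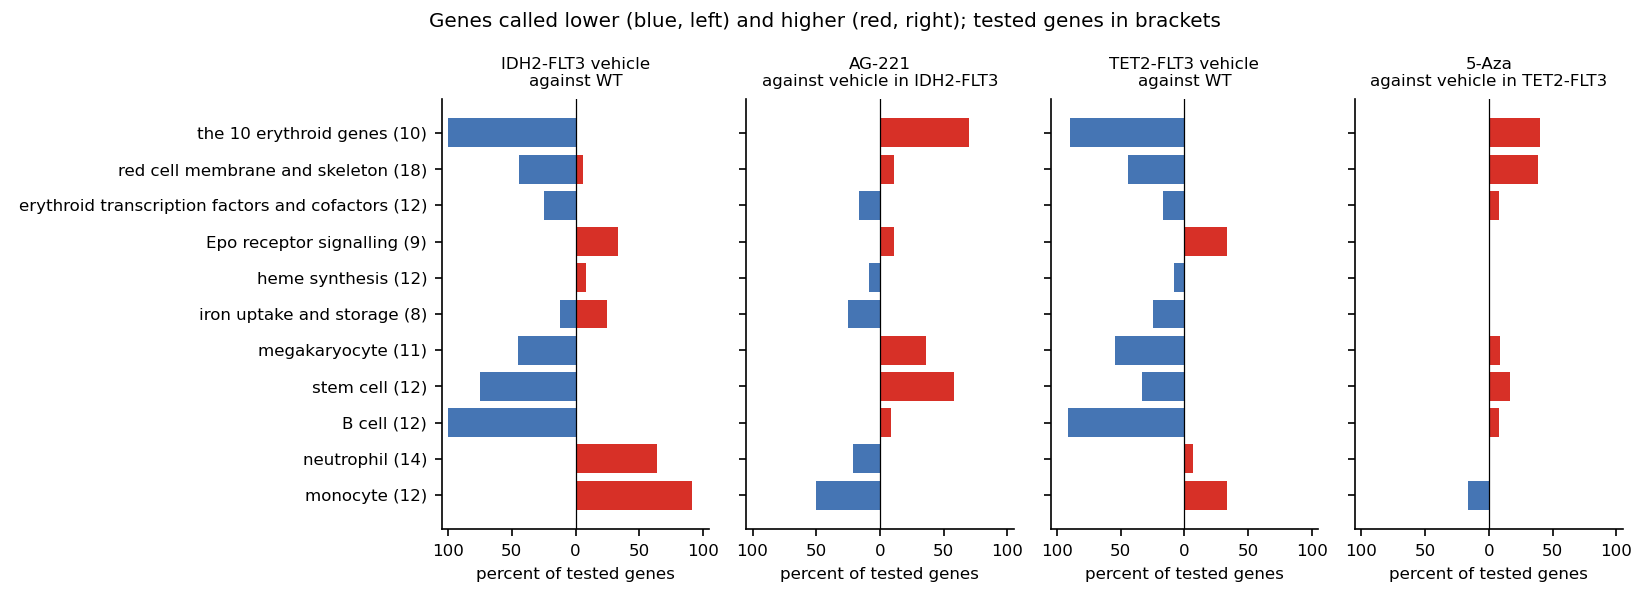
Percent of the tested genes of each list called lower (blue, left of 0) or higher (red, right of 0) in 4 comparisons, with the number tested in brackets. The 10 erythroid genes and the B-cell genes are the lists called lower most often in both lines, and heme synthesis has at most 1 call in each panel.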

How the data were processed

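RNA of sorted LSK cells was sequenced in 19 libraries of 5 groups. Reads were aligned to mm9 with STAR 2.4.0f1 and counted with featureCounts of Subread 1.4.5-p1, per the submitters' processing notes; the strand setting was not given in the sources used here. The authors deposited whole-number counts and FPKM for 33862 accessions. Names came from RefSeq (33481) and GENCODE (192); 189 accessions with 3.47% of counts stayed unnamed. In the deposited FPKM each accession had 1 length in every library, within 1 percent.

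Counts were fitted with edgeR 4.0.16 in R 4.3.3 (quasi-likelihood test, TMM factors of 0.761 to 1.22, filterByExpr, 5 group means, 14 residual degrees of freedom, common dispersion 0.184), with Benjamini-Hochberg adjustment over 11830 accessions. The code was tested on simulated data. Leukemic columns carry no replicate numbers, so no samples were paired. The 10 genes and all lists were chosen with earlier results of these data known. Named were all 10 genes, up to 4 genes per list of smallest p in leukemia against WT, Gata1, Kit and Ly6a, members of the heme, globin and membrane lists, and the 6 genes of highest mean Pearson r with the 10 (3 for Klf1 and Epor); Foxo3, Nfe2, Car3, S100a9 and Treml1 were named after their values were seen, and some genes of the lists are not reported here by name. DESeq2 1.42.0, limma 3.58.1, other scaling, filters, FPKM scales and leaving out libraries were alternatives. Promoter sequences are those of RefSeq (GRCm38.p6), and no mm9 coordinates were used. Intervals and bounds cover counting error only.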

Additional observations from a re-analysis of the deposited data

Results flagged for a closer look

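Rhd, the blood-group gene, had 3.17 CPM in library V19 of TET2-FLT3 vehicle, while the other libraries of that group had 0.682, 0.270 and 0.246 CPM. The gap to the nearest of them was 0.851 of the group's whole range, above Dixon's critical share at the 95% level for 4 libraries. Among 39 combinations of gene and group checked this way it was the 1 that passed, where chance gives about 5%. V19 was also the highest of its group for Cldn13, Ermap, Rhag, Klf1 and Epor.

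Hemgn differed between the vehicle groups of the lines, by -2.77 ± 0.56 on the log2 scale (IDH2-FLT3 minus TET2-FLT3, adjusted p = 0.00712, edgeR). All 3 IDH2-FLT3 libraries lay below all 4 TET2-FLT3 libraries, with means of 6.14 and 41.9 CPM. The call ended without V3.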

How the results depend on the processing

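Of 1539 values of single genes under an alternative, 1364 kept their direction and side of the threshold, 95 lost the call, 56 gained one and 24 changed sign, all 24 in results that had not passed. Counts of calls with 1 library left out ran from 9 to 9 of the 10 genes (IDH2-FLT3 vehicle against WT), 8 to 9 (TET2-FLT3 vehicle against WT), 2 to 8 (AG-221 against vehicle), 2 to 5 (5-Aza against vehicle), 2 to 5 (AG-221 against WT), 0 to 1 (5-Aza against WT), 0 to 2 (IDH2-FLT3 against TET2-FLT3 vehicle) and 0 to 2 (difference of the drug responses). Counts over all accessions moved too, from 97 to 2252 for AG-221 against vehicle and from 57 to 241 for 5-Aza against vehicle. For AG-221 against vehicle the count of members was 0 with the compared groups alone, 4 with limma-voom and 2 without V3-2 and V5-2. There 0, 1832 and 265 of all accessions were called, against 1145 with edgeR on all libraries. For 5-Aza against vehicle 1 member passed with limma-voom, where 230 of all accessions did, against 222. For AG-221 against WT the count of members was 8 with limma-voom and 8 on log2(FPKM + 1), where 2131 and 655 of all accessions were called, against 321. For 5-Aza against WT it was 2 without a filter, 8 with the compared groups alone, 4 with DESeq2, 8 with limma-voom, 8 on log2(FPKM + 1) and 4 on log2(FPKM + 0.1). In that order 265, 2157, 635, 2755, 844 and 560 of all accessions were called, against 203. On log2(FPKM + 1) 769 accessions were lower and 75 higher, with a median of all accessions of -0.16. Between the vehicle groups 0 of the 5 members tested passed with the compared groups alone (edgeR, where 1 had an unadjusted p under 0.05). The count was 2 with limma-voom, on log2(FPKM + 1) and on log2(FPKM + 0.1). In that order 17, 192, 489 and 572 of all accessions were called, against 506. For the difference of responses 1 member passed without a filter, with DESeq2 and on log2(FPKM + 0.1), where 185, 364 and 98 of all accessions did, against 27. The causes were not tested. Upper-quartile scaling moved the median of all accessions from -0.00 to 0.14 for AG-221 against vehicle, where 625 accessions were then higher and 385 lower against 519 and 626, and from 0.02 to -0.15 for IDH2-FLT3 vehicle against WT; the counts of members stayed within 1.5 times.

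Signs changed in the results that follow, each given as its range over the values with 1 library left out and, where it applies, under the other setting. For 5-Aza against WT, Hemgn ran from -0.24 to 0.08. Between the vehicle groups, Cldn13 ran from -0.20 to 0.75, Ermap from -0.29 to 1.31 (-0.13 with limma-voom), Rhd from -0.98 to 0.91 (0.11 with limma-voom), Rhag from -2.76 to 1.0, Klf1 from -0.92 to 0.33 and Epor from -2.25 to 1.37 (-0.99 with limma-voom). The signs turned without V9, V19, V3 or V3-2. In the difference of responses, Rhd ran from -1.80 to 0.10, Rhag from -0.90 to 2.84, Klf1 from -1.08 to 0.16 (0.06 with limma-voom) and Epor from -2.38 to 1.70, and Car1 was 0.41 with limma-voom and 0.08 on log2(FPKM + 1). No paired analysis was possible because the columns of the leukemic libraries carry none of the labels' replicate numbers. Depth limits Car1 most, with 3 and 0 counts in the vehicle groups.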
